A study of Rattus norvegicus with 6 samples.

Results

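Retinoic acid is made from retinaldehyde by the aldehyde dehydrogenases encoded by Aldh1a1, Aldh1a2 and Aldh1a3, and acts through the nuclear receptors encoded by Rara, Rarb and Rarg, which bind DNA as partners of the retinoid X receptors encoded by Rxra, Rxrb and Rxrg. These 9 genes were examined in rat Schwann cells, which are the glia of peripheral nerves, after stimulation with soluble Neuregulin1 (NRG1). They were taken by symbol, and all 9 were matched among 17327 genes. The list was proposed with the NRG1 response of these same libraries known, so the response of the 9 genes is a description only: the calls and intervals of the fit across all genes are given for them without p-values and support nothing.

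Primary Schwann cells came from the sciatic nerves of adult Wistar rats, 3 independent cultures in all. In each culture, cells were starved for 18 h in medium with 2% FBS and 10 μM forskolin, which raises cAMP, and then received for 6 h either 10 nM recombinant NRG1β1 (NRG1) or the same volume of its buffer with bovine serum albumin (mock). Forskolin was thus present in both groups. The medium used for expansion before starvation held the same ligand, NRG1β1, so both groups had received it before starvation. Each group has 3 samples, numbered by culture, and poly(A) RNA was sequenced from each. Reads on genes numbered between 6821590 and 15475018 per library, and 3 reads corresponded to between 0.19 and 0.44 CPM, a read count scaled to the size of the library, taken here as the detection floor.

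Culture 1 stood apart from the other two in its cell type markers. Of 5 fibroblast markers, Dcn, Lum and Thy1 had no read in either library of cultures 2 and 3, whereas Thy1 was at 1241 CPM in mock and 1121 CPM in NRG1 of culture 1. Pdgfra was at 851 and 811 CPM in culture 1 and between 0.15 and 1.61 CPM elsewhere. Col1a1 was high in all 6 libraries, and the summed level of the 5 markers ranged from 13610 to 30348 CPM in mock and from 13405 to 33820 CPM in NRG1. This sum came almost only from Col1a1, at 27635, 21477 and 13609 CPM in mock of cultures 1, 2 and 3. In NRG1 Col1a1 was at 31456, 13404 and 13744 CPM. The sum therefore does not measure fibroblasts. Of the Schwann cell markers, Sox10, S100b, Erbb3, Ngfr and Cdh19 were detected in every library. The sum of these 5 was 2988 CPM in mock and 2740.5 CPM in NRG1 of culture 1, against 5247 to 6808 CPM in the other 4 libraries. Markers of endothelial cells and macrophages summed to at most 0.78 and 10.1 CPM, and Ptprc, Pecam1, Cdh5 and Rbfox3 had no read. Of the 4 neuronal markers only Nefl was above the floor in all libraries, at 1470 to 5753 CPM.

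Synthesis is thought to be the step that sets how much retinoic acid a tissue sees, since the precursor retinol circulates widely while the ALDH1A enzymes are found in few cell types. In the nucleus, the RAR and RXR pair sits on repeated half-sites in DNA with corepressors and exchanges them for coactivators when ligand binds. Rarb is itself a textbook target of the pathway. RXR proteins also pair with receptors for vitamin D, thyroid hormone, fatty acids and oxysterols, so a change in an RXR gene need not concern retinoic acid alone.

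To give the sequence context of these genes, the start regions of all 9 were taken from RefSeq (GRCr8 assembly, 10 windows of 300 bases, 250 before and 50 after the annotated start). They were searched on both strands for direct repeats of a nuclear receptor half-site, separated by 1, 2 or 5 bases. As half-site counted the consensus AGGTCA and, in either position of the repeat, its variants: AGTTCA with one base changed, likewise GGGTCA with one other base changed, or finally GGTTCA with both of these changed. Only the Rarb window held such a repeat, with 5 bases between the half-sites, at bases 275 to 291 of the window. Among 33469 windows of all genes, 0.382% held a repeat with that spacing, 0.233% one with 1 base and 0.17% one with 2 bases. The repeat of Rarb is shown in capitals, in a stretch of 30 bases on the plus strand of chr15:11336410-11336439, because the level of Rarb is described below.
Rarb: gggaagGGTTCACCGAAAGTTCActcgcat
The 250 bases before the start are shown for Aldh1a3 (chr1:129427644-129427893, minus strand) and Rxrg (chr13:82276237-82276486, plus strand), the genes of the family that differed most between NRG1 and mock.
Aldh1a3: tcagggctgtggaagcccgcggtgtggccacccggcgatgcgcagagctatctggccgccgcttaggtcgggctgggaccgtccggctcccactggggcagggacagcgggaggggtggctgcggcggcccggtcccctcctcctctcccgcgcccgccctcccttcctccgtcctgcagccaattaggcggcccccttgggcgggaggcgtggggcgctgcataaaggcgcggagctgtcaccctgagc
Rxrg: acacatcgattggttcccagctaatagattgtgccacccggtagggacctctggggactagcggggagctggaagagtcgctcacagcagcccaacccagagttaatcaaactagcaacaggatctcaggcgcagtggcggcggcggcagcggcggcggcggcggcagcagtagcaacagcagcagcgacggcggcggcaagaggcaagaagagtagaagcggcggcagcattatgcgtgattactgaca
Neither stretch held any of the 4 half-sites, of which at least 1 was present in 44.4% of all windows. The stretch of Aldh1a3 was 73.6% G or C with 24 CpG dinucleotides, and that of Rxrg was 60.8% G or C with 20. The counts themselves were made on the rn5 assembly, and no binding was measured.

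Among the enzymes, Aldh1a3 was the gene with the largest response. This gene encodes the retinaldehyde dehydrogenase best known from the developing eye and nose. It was counted at 0.65, 1.03 and 1.26 CPM in mock of cultures 1, 2 and 3 (5, 7 and 16 reads). In NRG1 it was at 2.35, 10.1 and 6.00 CPM (18, 90 and 93 reads). Every NRG1 library was above every mock library, and the mock values lay close to the floor. The means were 0.98 ± 0.31 CPM in mock and 6.15 ± 3.88 CPM in NRG1 (SD, n = 3), and in the fit with the culture as a block the difference was 5.71-fold, or 2.51 on the log2 scale (SE 0.33). Within cultures 1, 2 and 3 the log2 ratio was 1.58, 3.06 and 2.08, so that culture 1, with the fibroblast markers, gave the smallest one. Without culture 1 the log2 fold change was 2.67. Only 1 mock library but all 3 NRG1 libraries reached the level of 1.2 CPM that the count filter asks of 3 libraries, so Aldh1a3 entered the fit through the group in which it was high.

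Aldh1a2, which supplies retinoic acid in much of the embryo, was nearly limited to culture 1. It had 68 reads in mock and 44 in NRG1 of culture 1 (8.89 and 5.75 CPM), and between 0 and 1 read in each of the other 4 libraries. Aldh1a2 thus differed far more between cultures than between mock and NRG1, and it was high in the same 2 libraries as Dcn, Lum, Thy1 and Pdgfra. Whether the cells carrying those markers also carried Aldh1a2 was not tested, and in bulk RNA a smaller number of cells of a type and less RNA per cell cannot be told apart. Aldh1a2 did not pass the count filter. When the filter was dropped, the difference between cultures had an adjusted p of 4.62e-20 (edgeR quasi-likelihood test). This value rests on the 2 libraries of culture 1, which is a single preparation. Dropping the filter also lowered the adjusted p of Rara in the same test, from 1.8e-05 to 1.98e-11.

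Aldh1a1, the enzyme found in adult liver and in many stem cells, was at or near the floor throughout. Its reads were 0, 1 and 8 in mock and 0, 8 and 6 in NRG1 of cultures 1, 2 and 3. The groups overlapped, no library exceeded 0.90 CPM, and a difference was not detectable at this depth. Its close relative Aldh1a7 had no read.

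**Figure D1:**
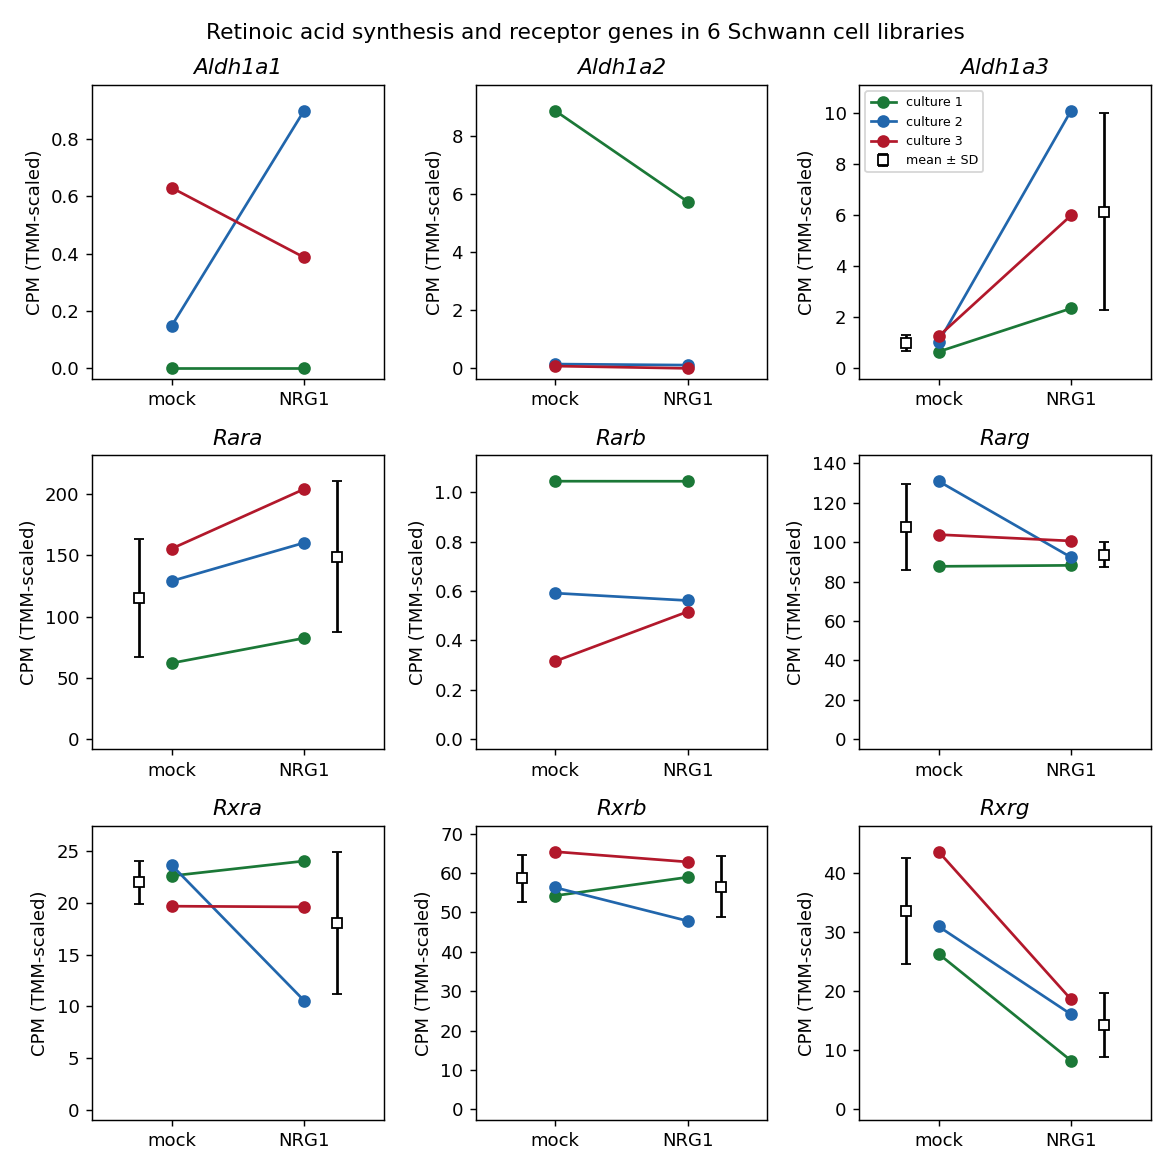
Level of the 9 genes in each library, as CPM scaled by library size and TMM, for mock and NRG1, each panel with its own axis from 0. Coloured points joined by a line are the 2 libraries of a culture, and squares with bars are the mean and SD over 3 libraries, drawn for the 6 genes that passed the count filter. Aldh1a3 is higher and Rxrg lower with NRG1 in each culture, while Aldh1a2 is seen in culture 1.

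Rxrg was the receptor gene with the largest response. RXRγ is the most restricted of the retinoid X receptors, known from muscle, brain and the oligodendrocyte lineage. Its level was 26.3, 30.9 and 43.5 CPM in mock and 8.23, 16.1 and 18.6 CPM in NRG1 of cultures 1, 2 and 3. All 3 NRG1 libraries were below all 3 mock libraries. The means were 33.6 ± 8.94 CPM in mock and 14.3 ± 5.39 CPM in NRG1 (SD, n = 3), and the log2 fold change was -1.26 (SE 0.16), so that the fitted level with NRG1 was 0.42 of that in mock. Within cultures 1, 2 and 3 the log2 ratio was -1.65, -0.94 and -1.22.
Some cell type markers were lower with NRG1 as well. Of the 5 Schwann cell markers, Cdh19, which encodes a cadherin, was called lower with a log2 fold change of -1.10 (edgeR adjusted p = 7.93e-05). S100b passed the adjusted p at -0.58 (edgeR adjusted p = 0.00883), while Sox10 (0.11), Ngfr (0.08) and Erbb3 (-0.21) did not pass. Of the 3 perineurial markers, the integrin gene Itgb4 was called lower at -1.44 (edgeR adjusted p = 4.59e-06), Slc2a1, a glucose transporter gene, passed the adjusted p in the other direction at 0.59 (edgeR adjusted p = 0.00452), and Cldn1 was at 0 in 4 libraries. The perineurial markers summed to between 115 and 196 CPM in mock and between 108 and 130 CPM in NRG1. This sum came almost only from Itgb4 and Slc2a1, which moved in opposite directions, so it does not measure perineurial cells. Which cells carried these genes, and the part of any of these markers in the lower Rxrg, was not tested.

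Rxra and Rxrb, the widely expressed members of the same receptor family, were not called. Rxra was at 22.6, 23.7 and 19.7 CPM in mock and 24.0, 10.6 and 19.6 CPM in NRG1. The groups overlapped, and the NRG1 library of culture 2 was by itself the low one. The log2 fold change of Rxra was -0.32 (95% interval -0.76 to 0.12), and without culture 2 it was 0.04. Rxrb was at 54.2, 56.3 and 65.4 CPM in mock and 58.9, 47.8 and 62.8 CPM in NRG1, with overlapping groups and a log2 fold change of -0.06 (95% interval -0.32 to 0.21).

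None of the retinoic acid receptor genes proper was called. Rara, which encodes the broadly expressed RARα, was at 62.1, 129 and 155 CPM in mock and 82.5, 160 and 204 CPM in NRG1. The groups overlapped because the cultures differed, yet the log2 ratio within cultures 1, 2 and 3 was 0.41, 0.31 and 0.39. The log2 fold change was 0.37 (95% interval 0.12 to 0.62). Rarg, the receptor gene best known from skin, was at 87.7, 131 and 104 CPM in mock and 88.2, 92.3 and 101 CPM in NRG1. Its groups overlapped, with a log2 fold change of -0.18 (95% interval -0.46 to 0.09).

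Rarb was close to the floor in both groups. It had 8, 4 and 4 reads in mock and 8, 5 and 8 reads in NRG1 of cultures 1, 2 and 3, or 0.31 to 1.05 CPM over the 6 libraries. The groups overlapped, and Rarb did not pass the count filter. The direct repeat printed above is thus in a gene with few reads in these cells, with and without NRG1.

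In the fit across all genes, a gene was called when its adjusted p did not exceed 0.01 and its level differed by more than 1 on the log2 scale (edgeR quasi-likelihood test with the culture as a block). By this rule 1.56% of the 9740 genes tested were called higher and 1.91% lower with NRG1. Of the 9 genes, 6 entered the fit, with Aldh1a3 called higher, Rxrg called lower and 4 not called. Aldh1a1, Aldh1a2 and Rarb did not enter it. Aldh1a3 and Rxrg were also the genes among the 9 whose groups did not overlap, a property shared by 9.79% (higher) and 9.86% (lower) of all genes tested. As the genes were chosen with this contrast known, nothing is read from these counts. The smallest absolute log2 fold change of a called gene was 1.26 (Rxrg), and the largest of an uncalled one was 0.37 (Rara). This too is a description only.

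**Figure D2:**
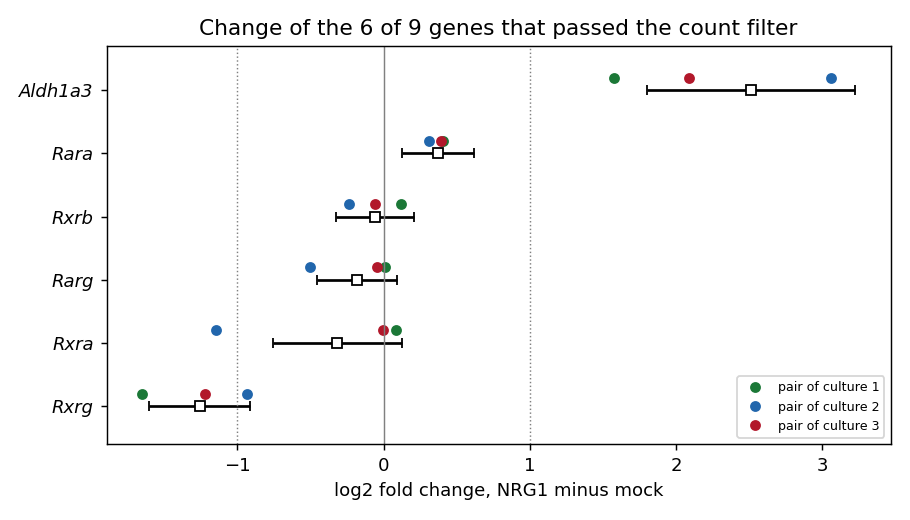
Log2 fold change of NRG1 against mock for the 6 of 9 genes that passed the count filter. Squares with bars are the fitted value and its 95% interval, coloured points the log2 ratio within each culture, and dotted lines mark 1 and -1. Aldh1a3 (2.51) and Rxrg (-1.26) lie outside the dotted lines, and the other 4 genes between them.

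The 3 cultures are independent preparations, and the difference between them does not enter the choice of genes, so it could be tested. In the same fit, the culture terms had an adjusted p of at most 0.01 in 23.4% of all genes tested, and in Rara and Rxrg among the 5 genes of the family that reached the count filter in all 6 libraries. Aldh1a3, which did not, is left out here, whereas the 23.4% covers every gene in the fit, also those at that level in only 3 libraries. Rara was lower in culture 1 than in the mean of cultures 2 and 3 by a log2 difference of -1.13, and Rxrg by -0.69. That contrast by itself was not tested. The adjusted p for any difference among the 3 cultures was 1.8e-05 for Rara and 0.00868 for Rxrg (edgeR quasi-likelihood test). With DESeq2 in place of edgeR the p of Rxrg was 0.014, and that of Rara was 4e-12. Without culture 3 the p of Rxrg in edgeR was 0.0915, and that of Rara was 2.85e-05.
The adjusted p (edgeR) was 0.248 for Rxra, 0.276 for Rxrb and 0.314 for Rarg, which did not pass. The summed Schwann cell markers were also lowest in both libraries of culture 1, as given above, as were all of the 5 but Cdh19 taken singly. Cdh19 was at 189 CPM in mock of culture 1 and 187 CPM in mock of culture 3, with an adjusted p of 0.423 (edgeR) for the difference between cultures. The markers' part in the lower Rara and Rxrg was not tested. With culture 1 left out, none of these 5 genes passed between cultures 2 and 3, where the adjusted p (edgeR) ranged from 0.474 to 0.913. Far fewer of all genes passed there too, 245 against 2278 with the 3 cultures, so this is not particular to the 5 genes.

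**Figure D3:**
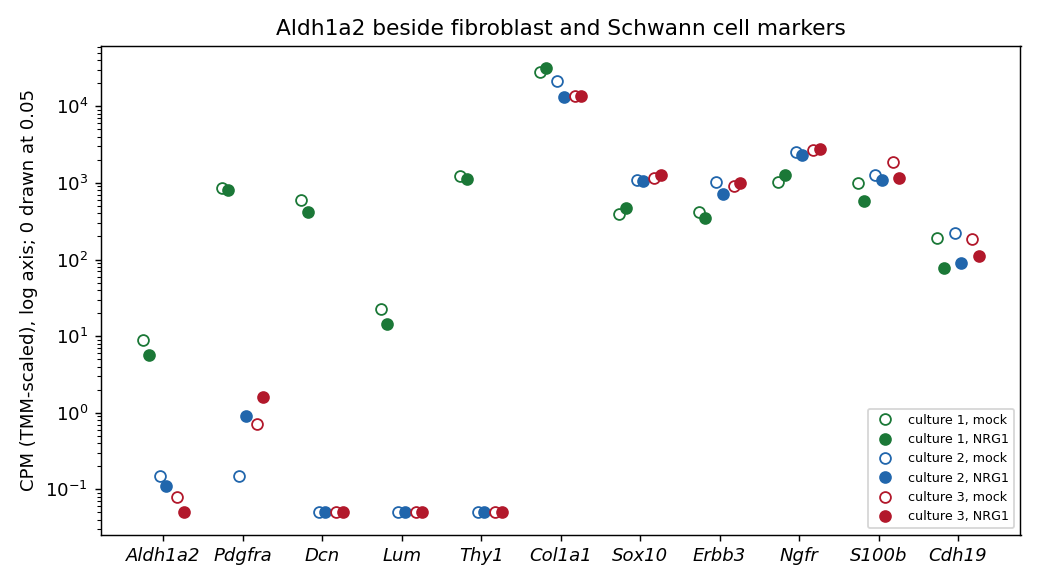
Level of Aldh1a2, of 5 fibroblast markers (Pdgfra, Dcn, Lum, Thy1, Col1a1) and of 5 Schwann cell markers (Sox10, Erbb3, Ngfr, S100b, Cdh19) in the 6 libraries, as CPM on a log axis with 0 drawn at 0.05. Open points are mock and filled points NRG1, coloured by culture. Aldh1a2 and the fibroblast markers are highest in both libraries of culture 1, in which the Schwann cell markers other than Cdh19 are lowest.

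The remaining genes of the pathway were then followed in the same fit, as 76 symbols in lists for related aldehyde dehydrogenases, retinoid uptake and binding, retinol oxidation, degradation, RXR partners, coregulators and target genes. Of these, 65 were matched and 37 had enough reads to be tested. These lists too were chosen with earlier results of these data known. Their calls, shares and p-values with NRG1 are therefore a description only. With NRG1, 1 of the 37 rose, Tgm2, and 2 fell, Nr4a2 and Btg2, where 1.56% of all genes tested were called higher and 1.91% lower. Their median log2 fold change was -0.13, against -0.03 over all genes tested. A further gene, Fabp5, passed the adjusted p but stayed under the fold change threshold. At that adjusted p with any fold change, 6.31% of all genes were higher and 5.51% lower, against 2 higher and 2 lower of the 37.

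Upstream of the synthesis enzymes, some of the genes that bring in and store retinol had almost no reads, while others were seen. Dgat1, an acyltransferase gene of this list, was at 48.0 ± 3.91 CPM in mock and 51.4 ± 2.68 CPM in NRG1 (SD, n = 3). Its log2 fold change was 0.10 (95% interval -0.17 to 0.37). Lpl was at 236 CPM in mock and 176 CPM in NRG1 of culture 1, and at most 5.47 CPM elsewhere. Stra6, the retinol transporter, and Ttr, the plasma carrier protein, had no read, and Lrat, which esterifies retinol for storage, had 1 read in all. Crabp2, which carries retinoic acid to the nucleus, was at 53.2 ± 7.47 CPM in mock and 52.0 ± 8.71 CPM in NRG1 (SD, n = 3), a log2 fold change of -0.04 (95% interval -0.34 to 0.25). Fabp5, a fatty acid carrier that also binds retinoic acid, was at 72.9, 131 and 223 CPM in mock and 168, 285 and 233 CPM in NRG1. Its log2 fold change was 0.79 (SE 0.18, edgeR adjusted p = 0.00691). The log2 ratio of Fabp5 was 1.20 and 1.12 in cultures 1 and 2 and 0.06 in culture 3, and without culture 3 the log2 fold change was 1.18.

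For the step from retinol to retinaldehyde, none of the 7 tested genes passed. Rdh10, the main retinol dehydrogenase of the embryo, was at 51.4 ± 25.4 CPM in mock and 32.8 ± 10.0 CPM in NRG1 (SD, n = 3), with a log2 fold change of -0.58 (SE 0.15, edgeR adjusted p = 0.0145). Dhrs3, which turns retinaldehyde back to retinol, had a log2 fold change of 0.08 (95% interval -0.25 to 0.42). Rdh11, another retinaldehyde reductase and the gene of this list with the most reads, had one of 0.07 (95% interval -0.21 to 0.35). Aldh2, the mitochondrial acetaldehyde dehydrogenase, was the tested gene among the related dehydrogenases, with -0.13 (95% interval -0.39 to 0.12).

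The enzymes that clear retinoic acid could not be tested. Cyp26a1 had no read. Cyp26b1 had 24 and 19 reads in mock and NRG1 of culture 1, and 4 and 7 reads in mock against 1 and 1 in NRG1 of cultures 2 and 3. Like Aldh1a2, it was thus highest in the culture with the fibroblast markers. This was not particular to these genes. Of the other listed genes, Aldh1l1, Nr1h3, Pparg, Lpl, Thrb and Rarres1 were among those also highest in both libraries of culture 1. Aldh1l1 had 119 reads in mock and 125 in NRG1 of culture 1 and none elsewhere. Crabp1 and Hoxb5 were among the genes lowest in culture 1.

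Among the 8 tested receptors that can pair with RXR, Nr4a2 (Nurr1) fell, where 1.91% of all genes tested were called lower. It was at 28.6, 47.2 and 28.3 CPM in mock and 18.0, 15.7 and 10.2 CPM in NRG1. The groups did not overlap, a property shared by 9.86% (lower) of all genes tested. The log2 fold change of Nr4a2 was -1.25 (SE 0.18, edgeR adjusted p = 0.000223). Nr4a1, its immediate-early relative, had a log2 fold change of -0.37 (SE 0.12, edgeR adjusted p = 0.0343) and did not pass. The median over the 8 receptors was -0.45, against -0.03 over all genes tested, and whether they stand apart from other genes was not tested. The thyroid hormone receptor gene Thra (-0.42) and the fatty acid receptor gene Ppard (-0.48) were under the threshold as well, with edgeR adjusted p-values of 0.0339 and 0.0355. Thrb (-0.88), Ppara (-0.54), Nr1h2 (-0.06) and Nr1i3 (0.33) did not pass either.

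None of the 10 tested corepressors and coactivators passed, and their median log2 fold change was -0.10. Ncor1, a corepressor of unliganded RAR and the most counted of these 10, was at 176, 187 and 139 CPM in mock and 183, 148 and 183 CPM in NRG1 of cultures 1, 2 and 3, with a log2 fold change of 0.04 (95% interval -0.26 to 0.34).

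Of 9 tested textbook target genes of retinoic acid, 1 rose, 1 fell and 7 did not pass, against 1.56% of all genes called higher and 1.91% called lower. The median log2 fold change of the 9 was -0.09, and whether the list stands apart from other genes was not tested. Tgm2, which encodes tissue transglutaminase, went from 1.70, 2.07 and 3.86 CPM in mock to 13.3, 54.4 and 40.5 CPM in NRG1 of cultures 1, 2 and 3. Its log2 fold change was 3.69 (SE 0.25, edgeR adjusted p = 6.74e-07). As with Aldh1a3, culture 1 had the lowest NRG1 value and culture 2 the highest. Btg2, an antiproliferative gene, was at 14.5, 9.17 and 14.6 CPM in mock and 9.80, 2.47 and 2.39 CPM in NRG1. The groups of Btg2 overlapped, as NRG1 of culture 1 was above mock of culture 2, and the log2 fold change was -1.63 (SE 0.31, edgeR adjusted p = 0.00192). Without culture 3 it was -1.08 with an adjusted p of 0.0225. Crabp2, Dhrs3, Nrip1 and Meis2, which are also known as targets, had log2 fold changes between -0.09 and 0.08 and did not pass. Of the other 3 that did not pass, Rarres2 had one of -0.65 (edgeR adjusted p = 0.0616) and Meis1 one of -0.27 (edgeR adjusted p = 0.186), both with a negative log2 ratio within each culture, and Hoxb5 one of -0.19.

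**Figure D4:**
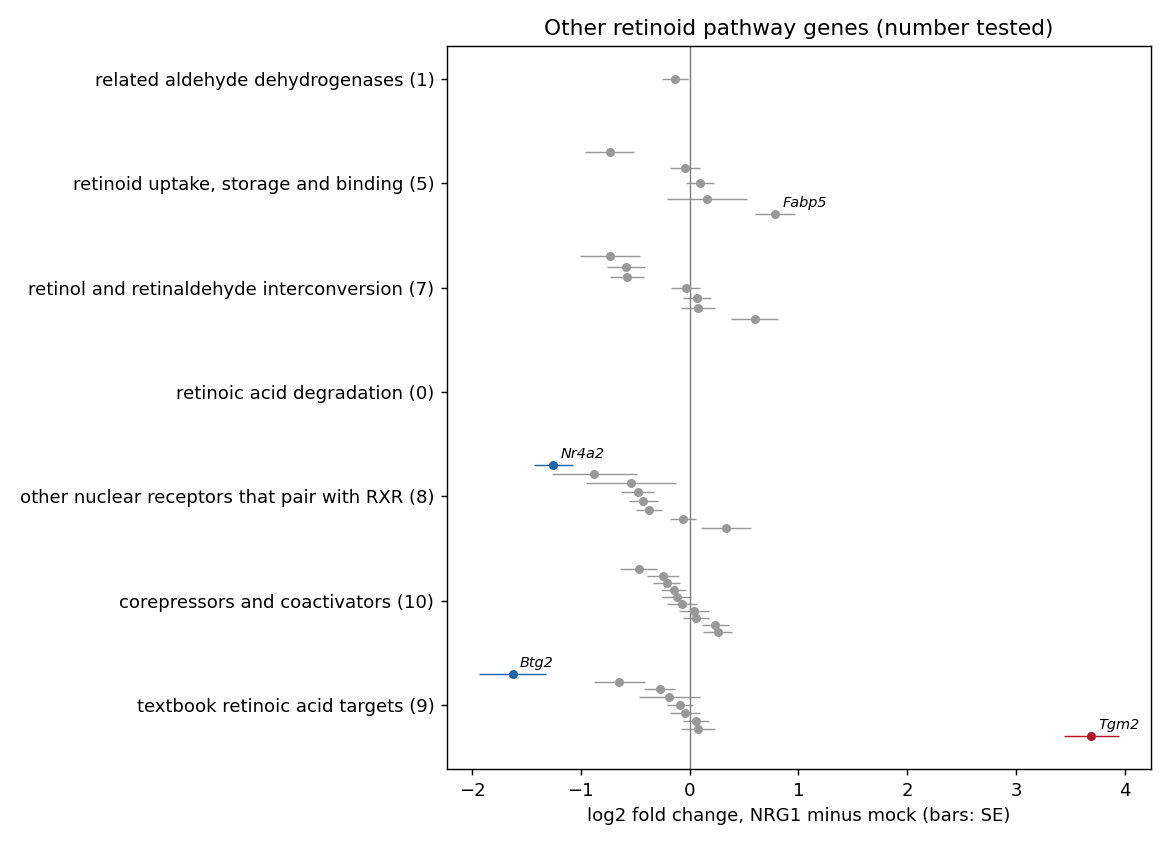
Log2 fold change of NRG1 against mock for the tested genes of each list, with bars for the standard error and the number tested in brackets; a gene on several lists is drawn in each. Red points were called higher, blue points called lower and grey points were not called, and genes with an adjusted p of at most 0.01 are named. Tgm2 (3.69), Btg2 (-1.63) and Nr4a2 (-1.25) are the called genes.

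Finally, the genes whose log2 CPM followed that of Aldh1a3 and Rxrg most closely over the 6 libraries were listed, as a description. For Aldh1a3 they were Ftsj3, which modifies ribosomal RNA, with Pearson r = 0.999, the mRNA-binding protein gene Serbp1 with 0.997 and the telomerase inhibitor gene Pinx1 with 0.996. Their log2 fold changes were 0.94, 0.67 and 0.73, all smaller than that of Aldh1a3. For Rxrg they were the fucosyltransferase gene Fut7 with r = 0.998, RGD1309534 with 0.992 and Pls1, which encodes an actin-bundling protein, with 0.991, and their log2 fold changes were -1.52, -0.67 and -1.38. All 6 libraries share both the stimulation and the culture differences, and the genes were picked from the whole table as the closest.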

How the data were processed

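The authors used TopHat 2.0.10 for mapping to rn5 and htseq for counting on the RefSeq transcriptome, and the deposited values are these raw counts, not normalised, for 17327 symbols. Alignments outside genes or not unique, 50.1% to 53.0% of each file, named no gene and were left out. Groups and culture numbers came from the sample titles. Genes were filtered with filterByExpr (minimum count 10), leaving 9740, and fitted with edgeR 4.0.16 in R 4.3.3 after TMM normalization, using the quasi-likelihood test with culture as a block and Benjamini-Hochberg adjustment over all genes tested. Calls needed an adjusted p not above 0.01 and a difference of more than 1 on the log2 scale. Log2 ratios within cultures used a prior count of 2, and 95% intervals came from the moderated standard error. Mock and NRG1 libraries of the same number came from one experiment according to the methods, and their deviations from the group means correlated across genes with r = 0.906, 0.673 and 0.81. Mock 3 with NRG1 2 gave 0.514 and mock 2 with NRG1 3 gave 0.512, so cultures 2 and 3 were less clearly told apart. Pairs of culture 1 with another culture gave -0.797 to -0.706. No 2 libraries agreed within sampling noise (smallest chi-square per degree of freedom 21.4). The fit was tested on simulated data. The 9 genes and all lists were chosen with earlier results of these data known, and some genes first listed are not reported here. The genes named are the 9, every listed gene with an adjusted p of at most 0.01, the most counted gene of each list, and the 3 closest genes to each called one. Others were named after their values were seen (Rdh10, Dhrs3, Crabp2, Nrip1, Rarres2, Meis1, Hoxb5, cell type markers, Thra, Ppard, the Cyp26 genes and those without reads). So were Dgat1, Lpl, Thrb, Adh7, Rarres1, Crabp1, Aldh1l1, Nr1h3, Pparg, Ppara, Nr1h2 and Nr1i3. Exon lengths were not used here, so levels are compared within a gene and not between genes. The floor of 3 reads covers counting error only. Alternatives were no block, RLE size factors, no count filter, DESeq2 1.42.0, an adjusted p of 0.05 and leaving out each culture.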

Additional observations from a re-analysis of the deposited data

How the results depend on the processing

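The log2 fold changes of Aldh1a3 and Rxrg over the alternatives, a description since the genes were chosen with this contrast known, ranged from 2.13 to 2.76 and from -1.39 to -1.09. With no replicate block, none of the 9 genes, 0 pathway genes and 0 of all genes were called (edgeR, smallest adjusted p 0.139, with 1334 genes at an unadjusted p under 0.05), against 2, 3 and 338 with it. DESeq2 with the block called 281 genes. Leaving out a replicate gave from 3 to 6 pathway genes, the most without replicate 1, where Lpl (-1.61), Thrb (-3.10) and Adh7 (-2.17) were called as well. These added calls rest on few reads in cultures 2 and 3. Thrb had 12 and 17 reads in mock of these cultures and 2 and 2 in NRG1. Adh7 had 14 and 15 against 2 and 6, and Lpl 37 and 17 against 21 and 3. Without replicate 3, Fabp5 was called at 1.18 and Btg2 was not, at -1.08. Over the fits that left out a replicate, Rxra ranged from -0.52 to 0.040, Rxrb from -0.14 to 0.027 and Rdh11 from -0.034 to 0.23, each with the sign turned without replicate 2. Ncor1 ranged from -0.12 to 0.23, with the sign turned without replicate 3. The number of the 9 genes that differed between cultures was 2, and was 4 with no low-count filter (Aldh1a2 added, and Aldh1a3, whose mock libraries are near the floor), 1 in the DESeq2 likelihood ratio test, and 0 to 3 without a replicate, with 0 when replicate 1 was left out. Over all genes it was 2278, against 3543 with no filter and 245 to 3783 without a replicate. The culture test has no form without the block. Of 105 values of named genes under alternatives, 94 kept their direction and side of the threshold. Depth limits Aldh1a1, Rarb and the mock level of Aldh1a3, which rest on 0 to 16 reads per library.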
